A study of Mus musculus with 15 samples.

Results

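Genes of the glucocorticoid response were followed through 1 circadian day in mouse liver by ribosome profiling, which counts the stretches of mRNA that ribosomes protect from RNase. The 9 genes are Fkbp5, Tsc22d3, Dusp1, Tat, Mt1, Mt2, Sgk1, Zbtb16 and Hsd11b1. They were chosen by symbol, and all of their RefSeq transcripts in the count tables were taken, which gave 16 of 28167 transcripts. Wild-type male C57BL/6N mice of 8 to 10 weeks of age were kept under 12 h of light at 400 lx and 12 h of dark for 2 weeks. They were then moved to constant darkness and, from 24 h later, killed at CT0, CT4, CT8, CT12, CT16, CT20 or CT24 (circadian time in hours, CT0 being subjective dawn and CT12 subjective dusk), with 2 livers per time. All 7 groups share the genotype and the light schedule, the time in darkness grows with the sampling time, and the labels name no hormone or other treatment.

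Glucocorticoids (corticosterone in mice) enter cells and bind the glucocorticoid receptor, a transcription factor that waits in the cytoplasm with chaperones of the Hsp90 family and then moves to the nucleus. There it binds palindromic DNA elements and raises or lowers the transcription of its target genes. Corticosterone in blood rises each day before the active phase, which in mice is the night, and liver is one of the main tissues in which it alters amino acid and glucose metabolism. Fkbp5 and Tsc22d3 are commonly read as markers of receptor activity. Hormone levels and mRNA levels were not analysed here, so a change in ribosome-protected reads cannot be split into a change of mRNA and a change of its translation. In a whole liver, fewer cells of a type and less RNA per cell cannot be told apart either.

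Sequences near the transcription start are shown first because the genes are grouped by their response to 1 receptor. RefSeq promoter windows (GRCm38.p6, 250 bases before to 50 after a start) were found for 8 of the 9 genes, 15 windows in all, with none for Zbtb16. Both strands were searched for the full receptor palindrome (AGAACA and TGTTCT with NNN between them), for a looser form that contains it (GNACA and TGTNC with NNN between them), for the metal response core TGCACNC or TGCGCNC, for the E-box CACGTG bound by CLOCK and BMAL1, and for TTATGTAA, a D-box bound by PAR bZIP factors. Capitals mark the match, a match on the other strand appears as its reverse complement, each line is read 5′ to 3′ on the strand of the gene, and positions count the first transcribed base as 0.
Sgk1, full palindrome at -189, chr10:21993693-21993722, + strand: atgcggaaAGAACAGAATGTTCTcggagat
Mt1, looser palindrome at -94, chr8:94178987-94179014, + strand: cactatagGGACATGATGTTCcacacgt
Mt2, looser palindrome at -1082, chr8:94171528-94171555, + strand: agctgcgaGGACAGCCTGTCCtgttaca
Dusp1, looser palindrome at -1027, chr17:26509480-26509507, - strand: tgtgatgaGTACAGTTTGTCCcacagag
The full palindrome was present in 3 of 32851 promoter windows of all genes (0.00913%) and the looser form in 0.475% of them. The Mt2 and Dusp1 matches lie outside these windows and came from the 3000 bases before each start, where 4.97% of all starts had the looser form. The windows of Tsc22d3, Fkbp5, Tat and Hsd11b1 held neither form, nor did the 3000 bases before their starts, which says only that these letters are not in them. A match here is a description and not a shown binding site.

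The 2 metallothionein genes carried several copies of the metal response core, the site of the zinc-sensing factor Mtf1. Each line gives a copy of Mt1 or Mt2 with its position.
Mt1 at -23, chr8:94179058-94179079, + strand: tcccgctgTGCACACtggcgct
Mt1 at 2, chr8:94179083-94179104, + strand: gggagctcTGCACTCcgcccga
Mt1 at 20, chr8:94179101-94179122, + strand: ccgaaaagTGCGCTCggctctg
Mt2 at -223, chr8:94172387-94172408, + strand: atcgcctcTGCACCCggcccct
Mt2 at -128, chr8:94172482-94172503, + strand: agacccttTGCGCTCagctcct
Mt2 at -50, chr8:94172560-94172581, + strand: gggagggcGTGTGCAggctctg
Mt2 at 4, chr8:94172614-94172635, + strand: ttcgggtcGTGCGCAggcccag
A core of this kind was present in 25.7% of all promoter windows, and single copies also lay in windows of Sgk1, Dusp1 and Hsd11b1. The E-box was found in windows of 3 of the genes and in 7.15% of all windows. That of Sgk1 is in the window of a start other than that of its main transcript.
Fkbp5 at -169, chr17:28486306-28486326, - strand: gggccagaCACGTGggcagcg
Dusp1 at -126, chr17:26508586-26508606, - strand: cgcccggtCACGTGtctgcca
Sgk1 at -246, chr10:21993640-21993656, + strand: tcctCACGTGttcttgg
TTATGTAA was in none of the 15 windows and in 0.938% of all windows. The windows of Tsc22d3 and Tat held none of the 5 motifs, and the printed matches do not overlap each other.

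Total counts per library ran from 40593197 to 90458783. Reads on all regions of a transcript (5′UTR, CDS, 3′UTR) were added and scaled by TMM, a factor estimated from most genes at once, and are given as TMM CPM, which are counts in proportion to the scaled total of the library. The TMM factors ranged from 0.736 to 1.46, and on a log2 scale a cosine fitted to them peaked at CT22.4 and spanned 0.46 from peak to trough, by which TMM and total-count scaling differ for every gene. Markers of hepatocytes summed to 33446 to 47134 TMM CPM, and those of Kupffer cells, endothelium and stellate cells each summed to between 60.5 and 143. Erythroid markers summed to 36.3 to 73.7. Neutrophil, lymphocyte, adipocyte and kidney markers were at most 1.48 per list. Pancreatic acinar markers summed to 2426 TMM CPM in CT20 replicate 2 and to at most 49.5 in the other libraries. Cholangiocyte markers were highest in CT0 replicate 1 (13.5, against a median of 4.43). In CT16 replicate 2, 100% of nonzero counts were even numbers, against 48.9% to 50.4% elsewhere, and the labels say that a second library of this replicate is held in the same count table. Read counts of this library, and sums that include it, may therefore be inflated by up to 2 times, and its weight in the tests with them. Results for the 9 genes are therefore also given without CT20 replicate 2 and CT16 replicate 2 where these moved a call.

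Ribosome-protected reads of 6 of the 9 genes followed a 24 h cosine, with fitted peaks between CT12.4 and CT18.4. This was the result of an edgeR quasi-likelihood test of the cosine and sine terms over 14 livers, adjusted by Benjamini-Hochberg over 17299 transcripts that averaged 10 or more reads. The same test called 11.3% of all transcripts. The genes past the threshold of 0.05 were Fkbp5, Mt1, Mt2, Dusp1, Tsc22d3 and Tat, and those that missed it were Zbtb16, Sgk1 and Hsd11b1. The swing, the fitted peak over the fitted trough in log2 units, had a median of 1.70 among the 9 genes and of 0.44 among all transcripts tested. Values for all 9 genes are plotted by time.

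**Figure D1:**
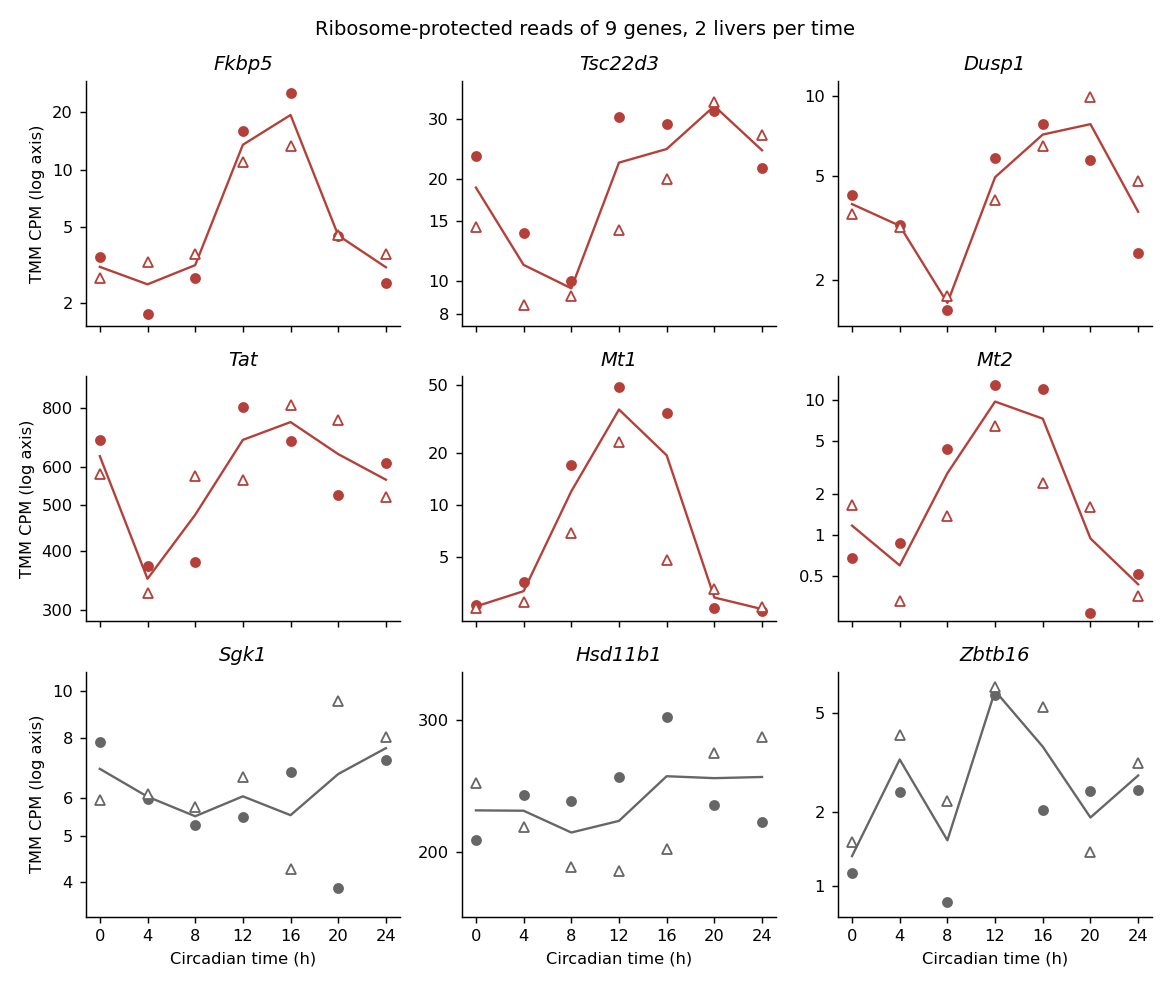
TMM CPM (log axis, a different range in each panel) against circadian time for the main transcript of each gene, with filled circles for replicate 1, open triangles for replicate 2 and a line through the means. Red panels are the 6 genes past the cosine test and grey panels the 3 that missed it. Fkbp5, Mt1 and Mt2 have their highest means at CT12 or CT16 and Tsc22d3 and Dusp1 at CT20, where that of Dusp1 rests on replicate 2.

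Fkbp5, a co-chaperone that binds Hsp90 and lowers the hormone affinity of the receptor, was high at CT12 and CT16 and low at the other times. The gene lies at chr17:28398753-28486149 on the minus strand with 11 exons. Replicates 1 and 2 gave 3.49 and 2.72 TMM CPM at CT0, 1.75 and 3.28 at CT4, 2.70 and 3.64 at CT8, 15.9 and 11.0 at CT12, 25.2 and 13.3 at CT16, 4.49 and 4.56 at CT20, and 2.57 and 3.61 at CT24. The 4 livers of CT12 and CT16 stood above the other 10 with no overlap, and both livers of CT20 were already back near the daytime level. The fitted peak was at CT14.9 ± 0.54 h (SE) and the swing 2.97 ± 0.40 (log2), or 7.86-fold (edgeR adjusted p = 9.6e-06). For every gene, the peak and the swing are those of the edgeR fit, and their SEs are those of a least-squares fit of the same cosine, which for Fkbp5 gave CT14.9 and 2.86. That swing was larger than in 99.3% of the transcripts tested. The call held in all 32 alternative settings of the fit, with adjusted p no higher than 0.000317.

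Tsc22d3 encodes GILZ, a leucine zipper protein that mediates part of the anti-inflammatory action of glucocorticoids. It reached its highest level later, at CT20. Its main transcript (chrX:140539528-140548571, minus strand, 4 exons) had 23.3 and 14.4 TMM CPM at CT0, 13.9 and 8.50 at CT4, 10.0 and 9.06 at CT8, 30.4 and 14.2 at CT12, 28.9 and 20.0 at CT16, 31.7 and 33.7 at CT20, and 21.6 and 26.9 at CT24. Both livers of CT20 were above the other 12, and the 2 livers of CT12 differed by 2.14-fold. The fitted peak was at CT18.4 ± 0.67 h with a swing of 1.70 ± 0.34 (log2, 3.24-fold, edgeR adjusted p = 0.00251). Acinar markers were high in 1 of the CT20 livers, and without that library the adjusted p was 0.00632. Leaving out both livers of CT8, where the gene was lowest, gave 0.0553.

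The locus makes a second RefSeq transcript from a start farther upstream (chrX:140539528-140600522). It shares the last 2 exons with the main one and encodes a longer protein, with a coding length of 609 against 417 nt in the count tables. CDS counts mix reads of shared and separate exons, whereas the 5′UTRs lie wholly in separate exons. Over 14 livers the 5′UTR held 5012 reads in the short isoform and 909 in the long one. In the short isoform it had 4.06 and 1.74 TMM CPM at CT4, 3.05 and 2.12 at CT8 and 9.82 and 8.84 at CT20. Replicate 1 of CT12 (10.2) and replicate 2 of CT24 (10.2) were above both livers of CT20. In the long isoform the 5′UTR was lowest at CT4, with 11 and 16 reads, and highest at CT12, with 193 and 101 reads. At CT20 the long isoform had 52 and 27 reads. The highest mean was at CT20 in the short and at CT12 in the long isoform, a difference that was not tested, and whole-transcript counts of both were called rhythmic. The 5′UTR to CDS ratio of the long isoform had an unadjusted p of 0.0356 in limma and an adjusted p of 0.809. The annotation used here gives a 5′UTR of 820 nt for the short isoform, against 218 nt in the count tables, so their models of this transcript differ. Of the 28-base words of its coding sequence, 10.9% also occur in transcripts of other genes, the pseudogene Gm8812 among them.

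**Figure D2:**
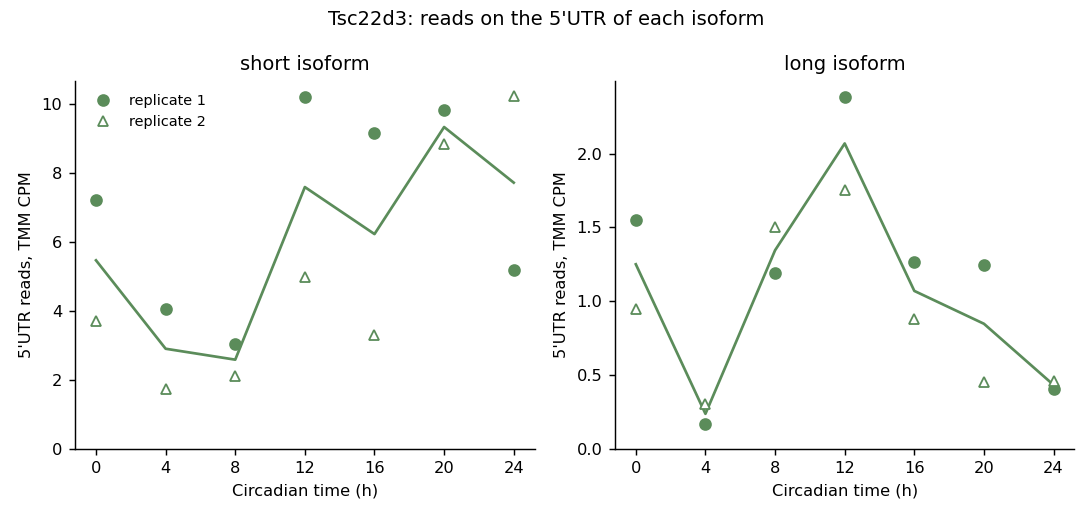
Reads on the 5′UTR of the short (left) and the long (right) Tsc22d3 isoform in TMM CPM (linear axes from 0, with different ranges) against circadian time, with circles for replicate 1, triangles for replicate 2 and lines through the means. The short isoform is low at CT4 and CT8 and highest at CT20, while the long isoform is lowest at CT4 and highest at CT12.

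Dusp1 encodes a phosphatase that switches off the MAP kinases p38 and JNK. It is also an immediate early gene that stress and growth factors induce. Its transcript (chr17:26505591-26508472, minus strand, 4 exons) had 4.22 and 3.57 TMM CPM at CT0, 3.25 and 3.19 at CT4, 1.54 and 1.74 at CT8, 5.84 and 4.02 at CT12, 7.82 and 6.49 at CT16, 5.74 and 9.94 at CT20, and 2.53 and 4.75 at CT24. The 2 livers of CT8 were the lowest of all, and those of CT20 overlapped with CT12 and CT16. CT20 replicate 2 is the library with acinar markers, and CT20 replicate 1 lay below both livers of CT16. The highest mean, at CT20, thus rests on CT20 replicate 2. The cosine peaked at CT18.0 ± 0.63 h with a swing of 1.89 ± 0.36 (log2, 3.70-fold, edgeR adjusted p = 0.00108). The adjusted p was 0.00447 without CT20 replicate 2 and at most 0.0105 over 32 alternatives.

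Tat encodes tyrosine aminotransferase, the enzyme that starts tyrosine breakdown and a classical hormone-induced gene of hepatocytes. It was the most densely read of the 9 genes and had the smallest called rhythm. The transcript (chr8:109990436-109999804, plus strand, 12 exons) had 685 and 582 TMM CPM at CT0, 372 and 326 at CT4, 378 and 575 at CT8, 806 and 565 at CT12, 683 and 812 at CT16, 524 and 756 at CT20, and 612 and 518 at CT24. Both livers of CT4 lay below all others. Both of CT16 lay above those of CT8 and CT24, and the remaining times overlapped with their neighbours in level. The fitted peak was at CT17.0 ± 0.90 h and the swing 0.90 ± 0.24 (log2, 1.87-fold, edgeR adjusted p = 0.0211). Of the 6 calls this was the one lost most often. It was lost in 8 of 32 alternatives, among them total-count scaling (adjusted p = 0.0556), leaving out CT16 replicate 2 (0.0629), CT4 replicate 1 (0.0749), CT4 replicate 2 (0.0740) or CT8 replicate 1 (0.0520), and leaving out both livers of CT4 (0.254), CT8 (0.0543) or CT16 (0.0740).

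Mt1 and Mt2, which encode small cysteine-rich proteins that bind zinc and copper, had the largest swings of the set and, among the 6 genes called, the earliest peaks. They are neighbours on chromosome 8 (Mt2 at chr8:94172618-94173567 and Mt1 at chr8:94179089-94180327, both on the plus strand with 3 exons), and 5521 bases lie between them. Mt1 had 2.61 and 2.54 TMM CPM at CT0, 3.58 and 2.75 at CT4, 17.2 and 6.88 at CT8, 48.8 and 23.2 at CT12, 34.2 and 4.82 at CT16, 2.53 and 3.28 at CT20, and 2.43 and 2.55 at CT24. The replicates were close at CT0, CT20 and CT24 and far apart at CT16, where they differed 7.10-fold. Mt2 had 0.675 and 1.67 TMM CPM at CT0, 0.868 and 0.322 at CT4, 4.36 and 1.38 at CT8, 13.0 and 6.47 at CT12, 12.1 and 2.43 at CT16, 0.263 and 1.62 at CT20, and 0.510 and 0.352 at CT24. Its lowest value rests on 11 reads. In both genes the 2 livers of CT12 and replicate 1 of CT16 were the highest, and replicate 2 of CT16 was far lower in both.

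The cosine of Mt1 peaked at CT12.4 ± 0.69 h, with a swing of 3.93 ± 0.57 (log2, 15.2-fold, edgeR adjusted p = 1.8e-05). That of Mt2 peaked at CT13.2 ± 0.89 h, with 4.02 ± 0.81 (16.3-fold, adjusted p = 0.000344). The least-squares fit behind the SEs gave CT12.1 and 3.58 for Mt1 and CT12.8 and 3.89 for Mt2. Both swings exceeded those of 99.5% of the transcripts tested. The 2 calls held in all 32 alternatives, with adjusted p up to 0.000967 for Mt1 and 0.00832 for Mt2.

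Per nucleotide of coding sequence, Mt1 held more reads than Mt2 in 14 of 14 livers. The coding sequences have the same length (186 nt in the annotation) and differ at 38 positions, so they are 79.6% identical. They share no word of 28 bases with each other. The log2 ratio of CDS reads per nucleotide was 1.82 ± 0.78 (SD, n = 14), or 3.54-fold, and flipping its sign over the livers in an exact permutation test (two-sided) gave p = 0.000122, the smallest value possible with 14 livers. The ratio ran from 0.66 in CT20 replicate 2 to 3.27 in CT20 replicate 1, where Mt2 had 11 reads. A cosine fitted to the ratio spanned 0.86 ± 0.62 (log2), and a permutation test with 100000 shuffles of the times gave p = 0.402, so a daily change of the ratio was not detectable. Each transcript has 1 ATG in its 5′UTR that opens a reading frame closed before the CDS. The 5′UTR held 10.1% of all reads of Mt1 and 1.48% of those of Mt2.

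**Figure D3:**
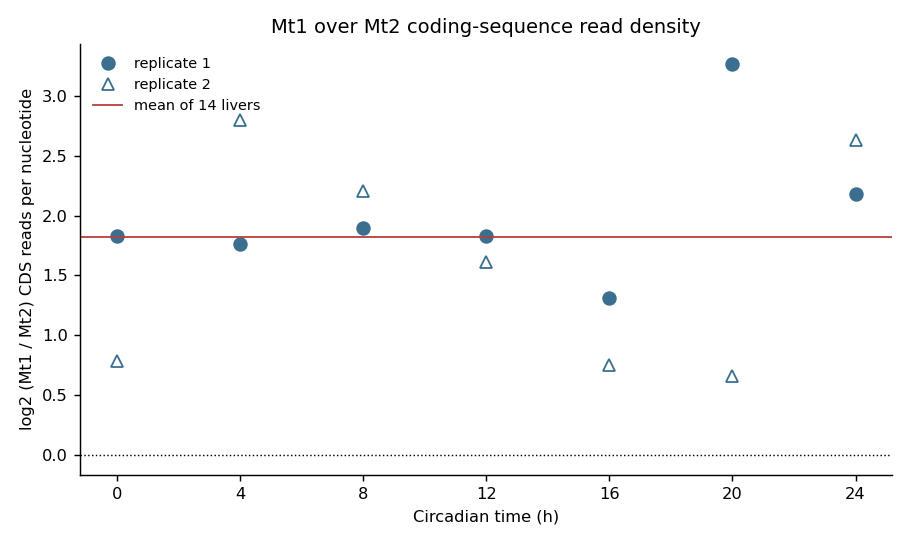
Log2 ratio of Mt1 to Mt2 coding-sequence reads per nucleotide (vertical axis) against circadian time in hours, 1 point per liver, with circles for replicate 1 and triangles for replicate 2. All 14 points lie above the dotted line at 0, around a mean of 1.82 (red line), and the livers of CT20 are the farthest apart.

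The remaining 3 genes did not pass the cosine test. Sgk1, a kinase that controls sodium transport and is induced by glucocorticoids and mineralocorticoids, has the full palindrome printed above in the window of another of its starts, and the match lies at -965 from the start of the main transcript, outside the window of the latter. The printed E-box of Sgk1 is in the same window as the palindrome and lies at -1022 from the start of the main transcript. The main transcript (chr10:21994666-21999903, plus strand, 12 exons) had 7.84 and 5.93 TMM CPM at CT0, 5.95 and 6.11 at CT4, 5.25 and 5.72 at CT8, 5.47 and 6.61 at CT12, 6.77 and 4.26 at CT16, 3.90 and 9.54 at CT20, and 7.17 and 8.04 at CT24. All times overlapped with others, and the livers of CT20 differed 2.45-fold, the higher being the library with acinar markers, whose part in this was not tested. The fitted swing was 0.36 ± 0.25 (log2, edgeR adjusted p = 0.507), and none of 32 alternatives called it. The 6 RefSeq transcripts of Sgk1 share nearly all their reads, and over 14 livers their 5′UTRs held at most 13 reads each, so the starts cannot be told apart at this depth.

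Zbtb16, a zinc finger repressor also known as PLZF, was highest at CT12. Its transcript (chr9:48651797-48835941, minus strand, 7 exons) had 1.13 and 1.51 TMM CPM at CT0, 2.40 and 4.10 at CT4, 0.863 and 2.20 at CT8, 5.91 and 6.40 at CT12, 2.02 and 5.30 at CT16, 2.41 and 1.37 at CT20, and 2.45 and 3.15 at CT24. Both livers of CT12 were above the other 12. The cosine test missed the threshold (adjusted p = 0.211), and of 32 alternatives only leaving out both livers of CT8 passed it (0.0168). The test of any difference among the 7 times (edgeR one-way fit) did pass, with adjusted p = 0.0276.

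Hsd11b1 encodes the enzyme that regenerates active corticosterone from its inert keto form inside the liver cell, and it was read at a nearly even level. Its main transcript (chr1:193221640-193242360, minus strand, 6 exons) had 207 and 247 TMM CPM at CT0, 238 and 216 at CT4, 234 and 191 at CT8, 252 and 188 at CT12, 303 and 202 at CT16, 231 and 271 at CT20, and 219 and 285 at CT24. Every time overlapped with the others. The swing was 0.25 ± 0.16 (log2, edgeR adjusted p = 0.544), smaller than in most transcripts, since only 23.8% of those tested had a lower one. A second RefSeq transcript with the same CDS gave the same picture (adjusted p = 0.584).

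The one-way fit, which asks for any difference among the 7 times, called 7.08% of all transcripts and 6 of the 9 genes. These were Fkbp5 (adjusted p = 7.8e-06), Mt1 (0.000356), Dusp1 (0.00198), Mt2 (0.00243), Tsc22d3 (0.0108) and Zbtb16. Tat missed it at 0.0513 and passed it with total-count scaling (0.0171). JTK_CYCLE, the rank test named in the study's methods, was run on CPM scaled by the total count. It called 22.2% of transcripts at an adjusted P under 0.05, and among them the 6 genes of the cosine fit, with P from 0.00161 for Fkbp5 to 0.0297 for Tat. Its P values are adjusted over phases within a transcript only. After Benjamini-Hochberg over all transcripts, 384 of 17299 passed and none of the 9 genes did, Fkbp5 being nearest at 0.0508. CT24 and CT0 are the same phase 1 day apart in different mice. No transcript differed between them in the edgeR one-way fit after adjustment (0 of 17299), while 5.05% had an unadjusted p under 0.05, Zbtb16 among the 9 genes (1.08 higher at CT24 on the log2 scale, unadjusted p = 0.0331, adjusted p = 0.957). The other 8 genes had unadjusted p between 0.107 and 0.990.

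The 6 rhythmic genes peaked in order as Mt1, Mt2, Fkbp5, Tat, Dusp1 and Tsc22d3. Differences between their peaks were computed from the least-squares fit, which allows for the covariance of the genes over the same livers and kept this order, with peaks at CT12.1, CT12.8, CT14.9, CT17.1, CT18.0 and CT18.6. Mt1 led Fkbp5 by 2.85 ± 0.70 h (SE) and Tsc22d3 by 6.52 ± 1.01 h, and Fkbp5 led Dusp1 by 3.05 ± 0.70 h and Tsc22d3 by 3.68 ± 0.82 h. Of the 5 pairs of neighbours in this order, 3 were less than 2 SE apart. Mt2 followed Mt1 by 0.75 ± 0.59 h, Dusp1 followed Tat by 0.92 ± 1.12 h, and Tsc22d3 followed Dusp1 by 0.62 ± 0.73 h. The other 2 pairs were farther apart, Fkbp5 following Mt2 by 2.28 SE and Tat following Fkbp5 by 2.13 ± 0.98 h. With the edgeR peaks of CT13.2 and CT14.9, Mt2 and Fkbp5 would be less than 2 SE apart. Of all transcripts called rhythmic, 33.6% had fitted peaks between CT12 and CT18.5, so the interval that holds the 6 genes is a common one.

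**Figure D4:**
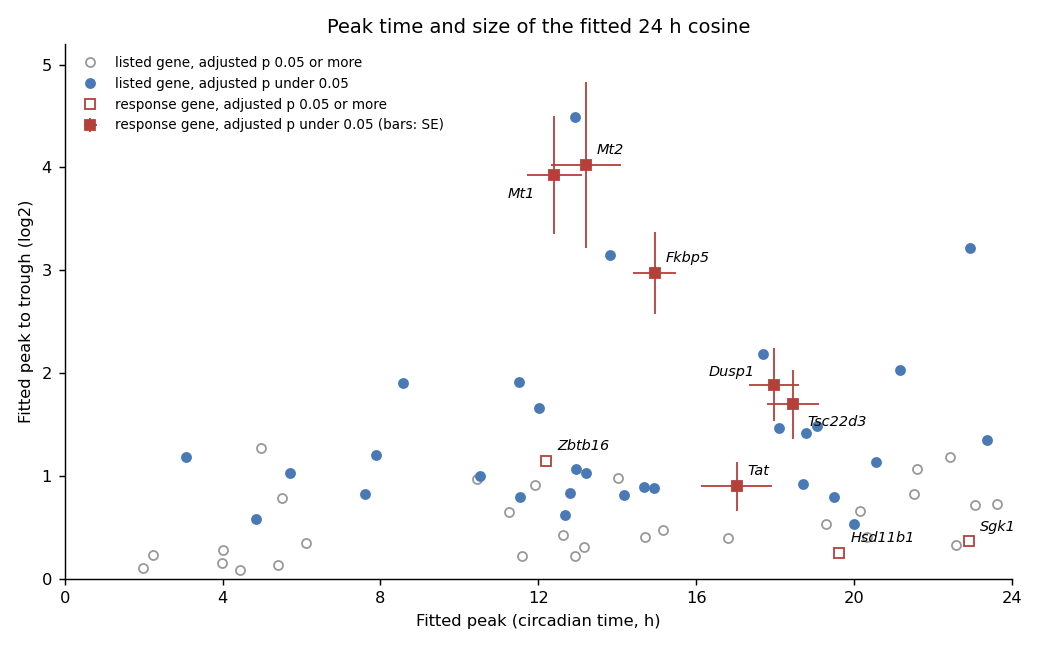
Fitted peak (horizontal axis, circadian time in hours) and swing (vertical axis, fitted peak over trough, log2) of the 9 genes (red squares, with SE bars for the 6 past the test) and of 59 other genes of the pathway lists (circles), filled where the adjusted p was under 0.05. The filled squares lie between CT12.4 and CT18.4, and Mt1 and Mt2 stand near 4 on the vertical axis.

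Compared per length, as CDS read density (RPKM, TMM-scaled), the genes spanned a wide range of levels. Over 14 livers the mean ± SD was 408 ± 109 for Tat and 255 ± 37.6 for Hsd11b1. It was 52.8 ± 70.2 for Mt1, 34.4 ± 14.4 for Tsc22d3 and 17.0 ± 22.5 for Mt2. The last group was Fkbp5 with 4.97 ± 4.88, Sgk1 with 4.83 ± 1.14, Dusp1 with 3.85 ± 1.94 and Zbtb16 with 1.35 ± 0.816. The SDs include the daily change. The ranges of mean ± SD overlapped among Fkbp5, Sgk1 and Dusp1, and for Tsc22d3 with Mt1 and Mt2, which does not show that the levels are equal. Only Mt1 and Mt2 were compared within each liver, above. The place of ribosomes within the transcripts was compared as the ratio of 5′UTR to CDS reads. The 5′UTR held 29.5% of the reads of Tsc22d3, 7.27% of Dusp1, 6.99% of Zbtb16, 3.91% of Tat, 3.44% of Hsd11b1, 1.32% of Fkbp5 and 0.0940% of Sgk1. A limma test of a 24 h cosine in this ratio called 0 of 7640 transcripts after adjustment, with 4.88% at an unadjusted p under 0.05. None of the main transcripts of Tsc22d3, Tat, Dusp1, Hsd11b1, Zbtb16 and Mt1, which had enough reads in both regions, was among those, with Zbtb16 lowest (limma unadjusted p = 0.201, adjusted p = 0.809).

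Over the 14 livers, 4 of 36 pairs of genes were correlated after Benjamini-Hochberg adjustment of permutation p values (100000 shuffles, log2 of TMM CPM plus 1). The shuffles ignored circadian time, so these p values also reflect daily change that 2 genes share. A share of correlated pairs among all genes is not given here. The 2 metallothioneins moved together, with Pearson r = 0.96 (adjusted p = 0.00072) and Spearman rho = 0.83 (adjusted p = 0.0122). Without the 2 livers farthest from the median of Mt1 the r was 0.89, and for deviations from the time means it was 0.91. Tsc22d3 and Dusp1 had r = 0.81 (permutation test, adjusted p = 0.00738) and rho = 0.82 (adjusted p = 0.0122), with r = 0.80 without 2 livers and 0.57 for deviations. Fkbp5 with Mt2 had r = 0.79 (permutation test, adjusted p = 0.0250) and rho = 0.52 (0.231), and with Mt1 r = 0.73 (0.0410) and rho = 0.56 (0.186). Without the 2 livers farthest from the median of Fkbp5 these fell to 0.51 and 0.40 (not tested), and for deviations they were 0.33 and 0.55. By rank alone Fkbp5 and Dusp1 also passed (rho = 0.76, permutation test, adjusted p = 0.0280), with r = 0.60 (0.107). Fkbp5 and Tsc22d3, the usual marker genes, had r = 0.42 (permutation test, adjusted p = 0.411). With total-count scaling 9 of the 36 pairs passed.

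**Figure D5:**
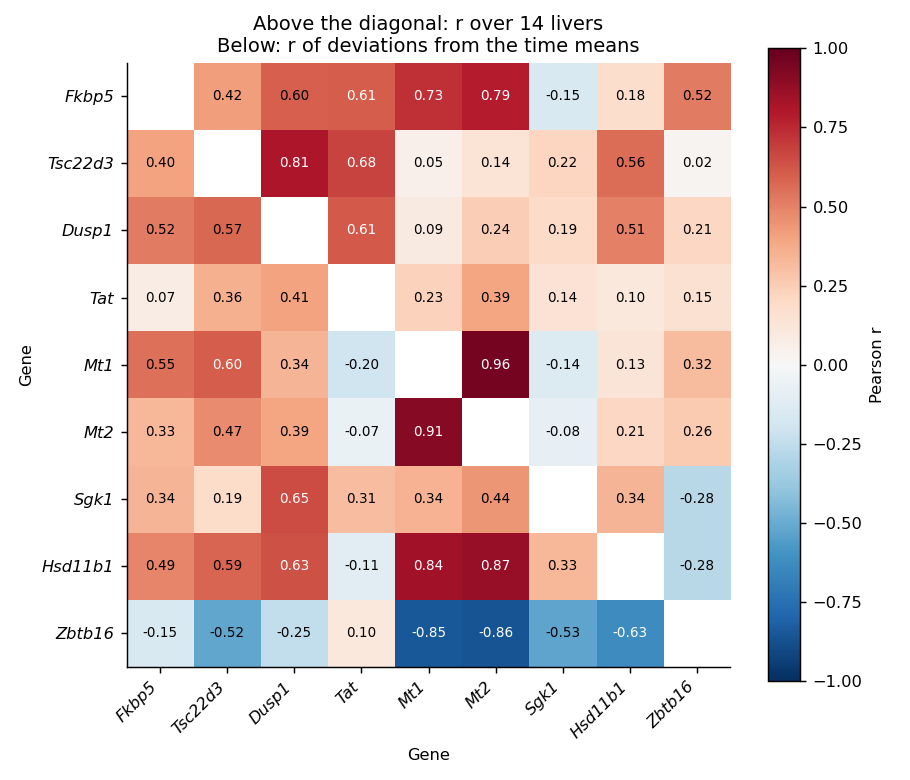
Pearson r between the 9 genes (colour scale from -1 to 1), over 14 livers above the diagonal and for deviations from the mean of each circadian time below it. Mt1 with Mt2 (0.96) and Tsc22d3 with Dusp1 (0.81) have the highest values above the diagonal, followed by Fkbp5 with Mt2 (0.79), and below it Mt1 with Mt2 (0.91) is followed by Hsd11b1 with Mt1 (0.84) and Mt2 (0.87) and Zbtb16 with both (-0.85 and -0.86).

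As a description with no test, the genes most like each member over the 14 livers were sought among 8147 genes with a mean of at least 100 reads. Nearest to Fkbp5 were Por, the reductase that serves the cytochromes P450 (r = 0.94), Mfsd2a (0.94) and B4galt5 (0.92). Nearest to Tsc22d3 were Asl, the argininosuccinate lyase of the urea cycle (0.89), Aacs (0.89) and Ahcy (0.86). Dusp1 was nearest to St13, an Hsp70-interacting cochaperone (0.89), Fmo5 (0.88) and Atp5c1 (0.86), and Tat to 3 ribosomal protein genes, Rpl31 (0.93), Rpl29 (0.93) and Rpl15 (0.91). Mt1 was nearest to Mt2 (0.96), to the zinc importer Slc39a14 (0.94) and to the clock repressor Ciart (0.93), and Mt2 to Acot12 (0.97), Tob2 (0.96) and Mt1. Nearest to Hsd11b1 were Pon1 (0.89), Atp5g1 (0.86) and Itm2b (0.86). Nearest to Sgk1 were Rap1a (0.84), Trmt2a (0.77) and Dusp6 (0.75), and to Zbtb16 Vps26a (0.83), Slc26a2 (0.79) and Akap13 (0.78). The livers share their library, depth and time in all of these values.

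Other genes of the pathway were described from lists of 70 genes, 59 of which had enough reads. The cosine fit called 30 of the 59, against 11.3% of the main transcripts of all genes. With total-count scaling the number was 18, and without CT16 replicate 2 and without CT20 replicate 2 it was 24 and 31. Over all 17299 transcripts the fit called 1947, and 1427, 1564 and 1844 under these settings in the same order. These totals also apply to the counts of single lists below. Of the receptor and its chaperones 6 of 8 were called. Nr3c1, the receptor itself, was not, with 16.2 ± 1.35 TMM CPM (SD, n = 2) at its lowest time CT0 and 25.3 ± 3.08 at its highest (adjusted p = 0.159). The cochaperone Fkbp4 peaked at CT20.5 (swing of 1.14, edgeR adjusted p = 4.6e-05), Hsp90ab1 at CT18.8 (1.42, adjusted p = 0.000193) and Hspa8 at CT17.7 (2.19, adjusted p = 0.00287). The 2 immunophilins of the receptor complex had fitted peaks at CT14.9 for Fkbp5 and CT20.5 for Fkbp4.

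Of 6 tested genes that supply or remove steroid, 4 were called, 2 with total-count scaling and 3 without CT16 replicate 2. Serpina6, the plasma carrier of corticosterone, peaked at CT14.9 (swing of 0.89, edgeR adjusted p = 0.00639). Akr1d1, a reductase of bile acid and steroid metabolism, peaked at CT19.5 (0.80, adjusted p = 0.0060) and Hsd3b5 at CT5.7 (1.03, adjusted p = 0.0113). H6pd, which makes the NADPH that Hsd11b1 uses, peaked at CT4.9 (0.58, adjusted p = 0.0203). Of 6 coregulators, Ncoa3 (0.53, adjusted p = 0.0395) and the coactivator Ppargc1a (1.66, adjusted p = 0.0397) passed, and none of the 6 passed with total-count scaling or without CT16 replicate 2.

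Among other liver genes that glucocorticoids are known to induce, 13 of 20 were called, with a median swing of 1.00 (log2), where that of all transcripts was 0.44. With total-count scaling 8 of the 20 were called, and without CT16 replicate 2 the number was 11. Lpin1, a phosphatidate phosphatase, peaked at CT12.9 with a swing of 4.49 (edgeR adjusted p = 5.7e-07). Pck1, the enzyme that commits carbon to gluconeogenesis, peaked at CT11.5 with 1.92 (adjusted p = 3.2e-06), and the cell cycle inhibitor Cdkn1a at CT22.9 with 3.22 (adjusted p = 0.000275). Of the 13 genes called, 6 had fitted peaks between CT12 and CT18.5, an interval that held 33.6% of all transcripts called.

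Relatives and partners of the members come last. In the zinc and metallothionein list 1 of 5 tested genes was called, the zinc importer Slc39a14 (CT12.8, swing of 0.83, edgeR adjusted p = 0.000504). The zinc exporter Slc30a1 (adjusted p = 0.164) and the importer Slc39a10 (0.405) missed the test, and the 2 untested genes of the list had 0 reads in all livers. With total-count scaling none of the 5 passed. Of 4 tested relatives of Dusp1 the edgeR fit called 0 (1 at an unadjusted p under 0.05; Dusp6 lowest, adjusted p = 0.0896, then Dusp16 at 0.661 and Dusp10 at 0.772), and 1 of the 4 passed with total-count scaling or without CT16 replicate 2. Of 5 tested immediate early genes, Junb (CT7.9, swing of 1.20, edgeR adjusted p = 0.0166) and Jun (CT18.1, 1.47, adjusted p = 0.0199) were called and Egr1 was not (adjusted p = 0.351), and 1 of the 5 was called with total-count scaling or without CT16 replicate 2. Of the relatives of Tsc22d3 and Sgk1, 2 of 5 were called, Tsc22d1 with a peak at CT3.1 (1.19, adjusted p = 0.0145) and Tsc22d2 at CT12.7 (0.62, adjusted p = 0.0338), while Sgk3 missed the threshold (adjusted p = 0.0804). In this list too, 1 of the 5 was called with total-count scaling or without CT16 replicate 2.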

How the data were processed

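The authors deposited, for each of 14 livers, raw counts of ribosome-protected reads on each RefSeq transcript, split into 5′UTR, CDS and 3′UTR, without normalization. According to the study's methods, reads were stripped of adapters and rRNA, aligned to mm10 and assigned to the A site. The submitters' processing notes name FastQC, Bowtie2 2.1.0.0 and SAMtools 0.1.19.0. Reads with a unique place in the genome were used, per the study's methods. How reads shared by transcripts of 1 locus were counted is not given in the sources used here, and Tsc22d3, Sgk1 and Hsd11b1 have such reads. Symbols came from RefSeq (27840 of 28167 transcripts matched), and the main transcript of a gene was the one with most reads. Coordinates and sequences are from GRCm38.p6, the assembly of mm10.

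Regions were added per transcript. The main tests used edgeR 4.0.16 under R 4.3.3 (after TMM scaling, quasi-likelihood F test, cosine and sine of 24 h, or circadian time as 7 levels), limma 3.58.1 for the region ratio with a pseudocount of 0.5, and DESeq2 1.42.0 as an alternative. JTK_CYCLE was rewritten in Python with lags every 2 h. Transcripts needed a mean of 10 counts (10 in each region for the ratio). All were tested on simulated data. Errors of peaks and swings, and differences between peaks, come from a least-squares cosine of log2 TMM CPM. The last pair of livers was taken as CT24 from its title, although its time field gives CT00. Replicates are separate mice, 2 per time, so an SD rests on 2 values and p-values draw on the spread pooled over times. The replicate numbers were not used to pair the livers in the main tests.

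The genes named are the members, the 3 genes of lowest adjusted p in each pathway list, the receptor, carrier and H6pd, and the 3 genes most like each member. A gene that this rule names in the coregulator list is not reported here. Members, lists and tests were chosen with earlier results of these data known. Alternatives were other scalings, count minimums, regions, 1 transcript per gene, each library or time left out, and blocks for replicate number and for the letters of the description label.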

Additional observations from a re-analysis of the deposited data

How the results depend on the processing

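Of the 6 rhythmic genes, Fkbp5, Mt1, Mt2 and Dusp1 passed the edgeR cosine test in all 32 alternatives, Tsc22d3 in 31 and Tat in 24. Fitted peaks of the 6 moved by less than 2 h in all of them. The number of transcripts called, 1947, was 1158 without the livers of CT8, 1054 without those of CT12 and 1245 with 1 transcript per gene, where fewer were tested, and it ran from 1499 to 2061 with single libraries left out. The one-way fit called 1225 transcripts and 2197 with total-count scaling. CT24 against CT0 called 0 transcripts, 1 with total-count scaling, 6 with the replicate block and 0 to 2 with a library of those times left out. JTK_CYCLE called 3840 transcripts and 6 of the 9 genes, and 384 and 0 by Benjamini-Hochberg q. The correlated pairs were 4, and 9 with total-count scaling. The pathway genes called were 30, 18 with total-count scaling and 24 to 31 without CT0 replicate 1, CT16 replicate 2 or CT20 replicate 2 (the only libraries left out in turn here), a comparison added after the data were seen. The log2 ratio of Mt1 to Mt2 stayed between 1.71 and 2.01. Apart from those named, the cause was not tested. Differences of replicates 1 and 2 correlated between times with r from -0.152 to 0.343, over 0.1 in 5 of 21 pairs of times. The main tests did not use the numbers as pairs, and whether they mark a shared series of samples was not tested. With the replicate block the cosine fit called 1916 transcripts and the one-way fit 1286, and it changed no call for the 9 genes. Depth limits genes with few reads, such as Mt2 with 11 in 1 library.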

Other observations

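As a description with no test, on pairs chosen after the values were seen, deviations from the mean of each circadian time correlated between Hsd11b1 and Mt1 with r = 0.84 and between Hsd11b1 and Mt2 with r = 0.87, while over all 14 livers these pairs had r = 0.13 and 0.21. The deviations of Zbtb16 ran the other way, with r = -0.85 against Mt1, -0.86 against Mt2 and -0.63 against Hsd11b1. These values rest on 7 pairs of livers, share a library and its scaling factor within each point, and are among 36 such pairs.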
